A study of Mus musculus with 2 samples.

Results

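The genes described here are the membrane carriers of sugars, vitamins, nucleosides, nucleotide sugars, bile acids and organic ions in the mouse intestine. They were taken by symbol from the deposited expression table: the Slc2, Slc5, Slc10, Slc13, Slc17, Slc19, Slc22, Slc23, Slc28, Slc29, Slc35, Slc37, Slc46, Slc47 and Slc52 families and the Slco genes without Slco2a1. This gave 121 of 18919 genes. RNA-seq had been done on whole intestine of C57BL/6 mice aged 2 months, from 2 pools. The Setd2 KO pool carried APCmin; Setd2IEC-/-, that is, the Min allele of Apc together with loss of Setd2 in the intestinal epithelium, and the control pool carried APCmin without the Setd2 deletion. Both pools therefore had the Min allele, which gives mice intestinal adenomas, and cells outside the epithelium kept Setd2 in both. The Cre line and the part of the intestine are not given in the sources used here. Each RNA was a mixture from 3 littermates and each pool had 1 library, so no difference below has a replicate check, an SD or a p-value.

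Most of these proteins absorb or export small water-soluble molecules across the plasma membrane. In the small intestine the sodium-driven Slc5a1 takes up glucose and galactose at the brush border, Slc2a5 takes up fructose, and Slc2a2 passes hexoses on to the blood. The Slc19, Slc23, Slc46 and Slc52 families carry vitamins, Slc28 and Slc29 carry nucleosides, Slc22, Slc47 and Slco carry organic cations and anions, and Slc35 carries nucleotide sugars into the endoplasmic reticulum and Golgi for glycan synthesis.

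The libraries held 8646358 expected counts in the Setd2 KO pool and 8809678 in the control pool. Values below are FPKM (fragments counted per kilobase of transcript and scaled to library size), which allow levels of different genes to be compared. Setd2, the targeted gene, was at 3.47 FPKM in the Setd2 KO pool and 6.87 FPKM in the control pool. Its count ratio was 0.504 (0.432 to 0.587), where a count ratio is that of expected counts scaled to the library totals, Setd2 KO over control, with an exact 95% interval that covers counting error only. Both libraries were rich in small intestinal RNA, with 20 markers of absorptive enterocytes summing to 30687 FPKM in the Setd2 KO pool and 42954 FPKM in the control pool. RNA known from other organs also differed: all 15 exocrine pancreas markers were at least 2-fold higher in the Setd2 KO pool, with a summed level of 2735 FPKM against 72.01 FPKM in the control pool. Of 7 measured stomach markers 6 were at least 2-fold higher, with a summed level of 66.73 FPKM in the Setd2 KO pool and 3.14 FPKM in the control pool.

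Of the 121 carriers, 85 reached 1 FPKM in at least 1 library and are called measured below. Of these, 80 reached it in both libraries, 4 in the Setd2 KO library only (Slc22a7, Slc22a15, Slc35e4 and Slc5a3) and 1 in the control library only (Slc22a13). The other 36 were under 1 FPKM in both, and Slc13a4, Slc17a3, Slc22a26, Slc35g3 and Slco4c1 were listed at 0 in both. Together the 121 genes summed to 3564 FPKM in the Setd2 KO pool and 4198 FPKM in the control pool, which was 0.695% of all FPKM in the Setd2 KO pool and 0.810% in the control pool. Slc5a1 alone made up 25.5% of the carriers' sum in the Setd2 KO pool and 29.5% in the control pool.

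Most carriers differed little between the pools, and the exceptions were mainly lower in the Setd2 KO pool. Slc23a1, Slc5a4b, Slc5a4a, Slc28a1 and Slc5a11 were at least 2-fold lower, and Slc2a1 and Slc22a7 were at least 2-fold higher. Of the lower genes, Slc23a1 takes up vitamin C, Slc28a1 nucleosides and Slc5a11 inositol, while Slc5a4a and Slc5a4b belong to the sodium-glucose family. Here at least 2-fold means a log2 ratio of 1 or more, or -1 or less, after adding 1 FPKM to both values. The 5 lower genes were 5.88% of the 85 measured carriers, against 1.28% of the 13253 measured genes of the whole table. The 2 higher genes were 2.35% of the carriers, against 2.78% of all measured genes, so that share was near the background. The median log2 ratio was -0.03 over the measured carriers (95% range of the median by order statistics, -0.16 to 0.09) and 0.08 over all measured genes. A log2 ratio below 0 was found for 51.8% of the measured carriers and 37.2% of all measured genes.

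Counting error alone did not cover many of the smaller differences, which says nothing about differences between mice. The count ratio's interval lay below 1 for 30 carriers, or 35.3%, against 12.5% of all measured genes. It lay above 1 for 20 carriers, or 23.5%, against 28% of all measured genes, and it included 1 for the other 35. The median count in the higher library was 406 for the carriers and 227 for all measured genes, so intervals were narrower for the carriers.

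**Figure D1:**
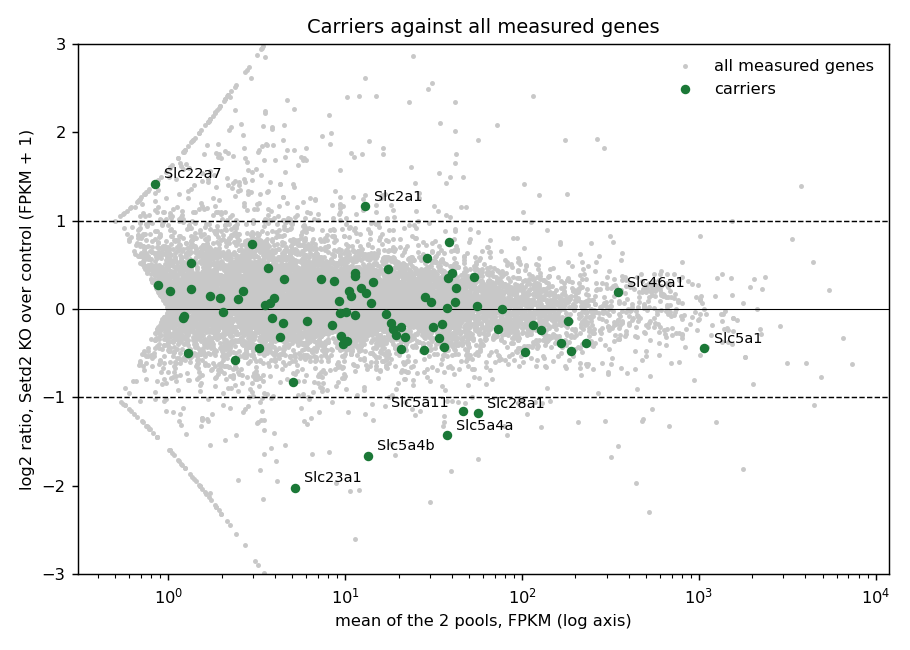
Log2 ratio of Setd2 KO over control (1 FPKM added to both) against the mean level of the 2 pools in FPKM on a log axis; green points are the 85 measured carriers, grey points all 13253 measured genes, and dashed lines mark 2-fold. Slc23a1, Slc5a4b, Slc5a4a, Slc28a1 and Slc5a11 lie below the lower line and Slc2a1 and Slc22a7 above the upper one, while the most abundant carrier, Slc5a1, lies at -0.44; 42 genes fall outside the axis range.

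Promoter sequences are shown for 5 of the 7 carriers past 2-fold, so that neighbours and unrelated carriers can be compared. Slc23a1 and Slc22a7 are named without one. RefSeq promoter windows on build GRCm38.p6, which run from 250 bases before to 50 bases after the annotated start, were found for 97 of the 121 carriers. The 130 bases around the start (100 before, 30 after) are printed 5′ to 3′ on the gene's strand for Slc5a4a (chr10:76147351-76147480, plus strand), Slc5a4b (chr10:76110989-76111118, minus strand), Slc5a11 (chr7:123214766-123214895, plus strand) and Slc28a1 (chr7:81114699-81114828, plus strand), which were lower in the Setd2 KO pool. They are followed by Slc2a1 (chr4:119108645-119108774, plus strand), which was higher, and Slc5a1 (chr5:33104119-33104248, plus strand), the main glucose carrier. For Slc5a11 and Slc28a1 the window is around an annotated start inside the gene, since the genes begin at 123214594 and 81113269. For the others it is around the outer start of the gene. Capitals mark the longest run that the windows of Slc5a4a and Slc5a4b share.
Slc5a4a: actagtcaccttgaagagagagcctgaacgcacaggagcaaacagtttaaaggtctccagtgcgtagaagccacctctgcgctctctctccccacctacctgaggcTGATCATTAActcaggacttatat
Slc5a4b: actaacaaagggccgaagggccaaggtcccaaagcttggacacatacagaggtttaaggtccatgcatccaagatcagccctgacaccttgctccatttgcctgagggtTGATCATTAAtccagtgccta
Slc5a11: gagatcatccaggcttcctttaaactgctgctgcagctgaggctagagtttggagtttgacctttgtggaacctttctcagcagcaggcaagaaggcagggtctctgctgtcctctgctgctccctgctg
Slc28a1: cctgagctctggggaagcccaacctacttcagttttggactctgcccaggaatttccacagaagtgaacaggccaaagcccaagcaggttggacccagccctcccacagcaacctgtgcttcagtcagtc
Slc2a1: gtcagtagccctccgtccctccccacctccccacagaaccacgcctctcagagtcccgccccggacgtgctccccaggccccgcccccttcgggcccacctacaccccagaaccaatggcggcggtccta
Slc5a1: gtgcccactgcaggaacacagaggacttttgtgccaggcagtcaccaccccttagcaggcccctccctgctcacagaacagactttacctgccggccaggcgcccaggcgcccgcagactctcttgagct

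That run of 10 bases lies at +7 to +16 in Slc5a4a and at +10 to +19 in Slc5a4b, counted from 1 at the annotated start, so it is in the first transcribed bases of both. It was picked from these 2 windows, so its presence in both was fixed in advance. On either strand it occurred in 8 of 27025 windows (0.0296%), these 2 included, and in no other of the 97 carriers. How often other runs of 10 bases occur was not counted, so these numbers do not mark it as special. The 300-base Slc2a1 window had 65.3% G and C and 18 CG dinucleotides, while those of Slc5a4a, Slc5a4b, Slc5a11 and Slc28a1 had 48% to 60.7% G and C and 2 to 4 CG dinucleotides. The Slc5a1 window, of a gene that was lower within 2-fold, had 60.3% and 10. Over the 62 measured carriers with a window the medians were 60.2% and 15, and over all windows they were 52.7% and 7. The Slc5a11 and Slc28a1 values are of windows inside the gene and may not describe its outer start. All these values and the shared run describe the letters only.

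The sodium-glucose family held the most abundant carrier and a neighbouring pair with some of the lowest ratios. Slc5a1 was at 910.35 FPKM in the Setd2 KO pool, where it ranked 62nd of all genes, and at 1238.86 FPKM in the control pool, where it ranked 44th. Its count ratio was 0.735 (0.724 to 0.745), from 31251 counts in the Setd2 KO pool and 43340 in the control pool. Slc5a4a and Slc5a4b are the mouse counterparts of a human gene whose product senses glucose rather than carrying much of it. Slc5a4a was at 19.90 FPKM in the Setd2 KO pool and 55.16 FPKM in the control pool, with a count ratio of 0.361 (0.319 to 0.408). Slc5a4b was at 5.96 FPKM in the Setd2 KO pool and 21.00 FPKM in the control pool, with a count ratio of 0.284 (0.228 to 0.351). The genes lie head to head on chromosome 10, Slc5a4b at 76058618 to 76111018 on the minus strand and Slc5a4a at 76147451 to 76189265 on the plus strand, with 36432 bases between them. RSEM divided a few reads between genes here, since the control counts, 999.81 and 395.19, are not whole. The summed counts, 464 in the Setd2 KO pool and 1395 in the control pool, gave a ratio of 0.339 (0.304 to 0.377).

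The other genes of the sodium-glucose family were low and did not follow Slc5a4a and Slc5a4b. Slc5a9, a mannose and glucose carrier, was at 11.34 FPKM in the Setd2 KO pool and 9.74 FPKM in the control pool, with a count ratio of 1.16 (1.01 to 1.34). Slc5a2, the renal glucose carrier, was at 5.16 FPKM in the Setd2 KO pool and 3.86 FPKM in the control pool, and Slc5a10 was at 2.91 FPKM in the Setd2 KO pool and 2.40 FPKM in the control pool. Both intervals included 1. The 6 genes had 0 higher and 2 lower members and a median log2 ratio of -0.12.

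Among the facilitative Slc2 carriers the intestinal hexose carriers Slc2a2 and Slc2a5 were lower in the Setd2 KO pool and Slc2a1 was higher. Slc2a2 was at 197.57 FPKM in the Setd2 KO pool and 258.95 FPKM in the control pool (count ratio 0.763, 0.733 to 0.793). Slc2a5 was at 85.96 FPKM in the Setd2 KO pool and 121.22 FPKM in the control pool (count ratio 0.709, 0.672 to 0.748). Slc2a9, a urate carrier, was at 8.20 FPKM in the Setd2 KO pool and 11.11 FPKM in the control pool, and Slc2a8, an intracellular hexose carrier, at 1.72 FPKM in the Setd2 KO pool and 3.05 FPKM in the control pool. These were all within 2-fold, and their intervals lay below 1. Slc2a7, next to Slc2a5 on chromosome 4 at a distance of 4665 bases, differed from its neighbour in ratio: it was at 37.62 FPKM in the Setd2 KO pool and 37.28 FPKM in the control pool, with a count ratio of 1.01 (0.891 to 1.14). That interval does not overlap the one of Slc2a5.

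Slc2a1, the glucose facilitator of most cell types, of endothelium and, in humans, of red cells, was at 18.17 FPKM in the Setd2 KO pool and 7.55 FPKM in the control pool. It had 406 counts in the Setd2 KO pool and 172 in the control pool, a ratio of 2.41 (2.01 to 2.89), and its log2 ratio was 1.16. Markers of red cells and endothelium were also on the higher side. The 4 measured of 6 red cell markers were all at least 2-fold higher and summed to 239 FPKM in the Setd2 KO pool and 65.47 FPKM in the control pool, although the red cell genes Slc4a1 and Alas2 were under 1 FPKM in both. Of 9 endothelial markers 8 had a log2 ratio above 0, as did 8287 of the 13253 measured genes of the whole table. Of these markers 1 (Cdh5) was past 2-fold, and they summed to 77.05 FPKM in the Setd2 KO pool and 63.01 FPKM in the control pool. Their part in the Slc2a1 difference was not tested. The 10 measured Slc2 facilitators had 1 higher and 0 lower members and a median log2 ratio of -0.10. Slc2a3, Slc2a4, Slc2a6 and Slc2a10 were between 1.13 and 4 FPKM in both pools, with intervals that included 1.

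Levels were added up over the 17 genes of the Slc2 facilitator and Slc5 sugar groups, with Slc2a9, Slc5a4a and Slc5a4b included. The sum was 1313 FPKM in the Setd2 KO pool and 1778 FPKM in the control pool. Slc5a1 was 69.3% of that sum in the Setd2 KO pool and 69.7% in the control pool. The lower carriers of the brush border stood beside lower enterocyte markers: 19 of 20 markers of absorptive enterocytes had a log2 ratio below 0, none was past 2-fold, the median was -0.38, and their counts gave a summed ratio of 0.753. Markers of the whole epithelium did not share this. Of these, 6 of 10 were above 0, against 8287 of all 13253 measured genes, and the summed count ratio was 1.05. The stomach and pancreas markers moved the other way, as given above, and the part of the tissue sampled in these differences was not tested. In RNA of whole intestine, fewer cells of a type and less RNA of a gene per cell cannot be told apart. Count ratios of the single enterocyte markers ran from 0.585 (Rbp2) to 1.19 (Alpi). Those of Slc5a1, Slc2a2 and Slc2a5 lay within this range, while those of Slc5a4a and Slc5a4b, with intervals that ended at 0.408 and 0.351, lay below it. The part of enterocyte number in any of these ratios was not tested.

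**Figure D2:**
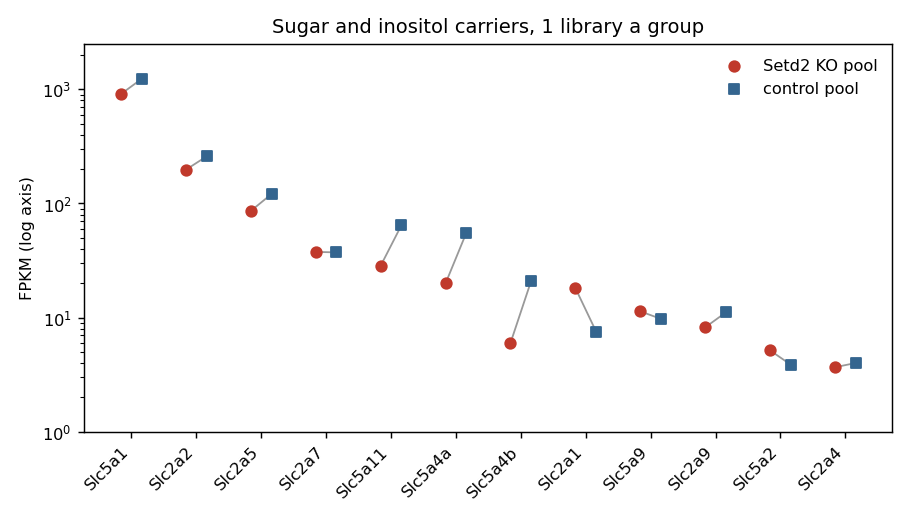
FPKM on a log axis of 12 genes of the Slc2 and Slc5 families, with the Setd2 KO pool as a circle on the left and the control pool as a square on the right of each gene (1 library a group, no error bars). Slc5a1 is at 910.35 FPKM in the Setd2 KO pool and 1238.86 FPKM in the control pool; the steepest lines belong to Slc5a4b, Slc5a4a and Slc5a11, lower in the Setd2 KO pool, and to Slc2a1, higher there.

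Of the inositol carriers, Slc5a11 differed and the others were scarce. Slc5a11, a sodium-driven myo-inositol carrier of the Slc5 family, was at 28.37 FPKM in the Setd2 KO pool and 64.32 FPKM in the control pool. Its 576 counts in the Setd2 KO pool and 1331 in the control pool gave a ratio of 0.441 (0.399 to 0.487). Slc5a3, the inositol carrier of osmotic regulation, was at 1.16 FPKM in the Setd2 KO pool and 0.87 FPKM in the control pool, and Slc2a13, the proton-driven one, was under 1 FPKM in both.

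The genes of sugar digestion and hexose breakdown were mostly lower as well. Of 16 measured genes 10 had a log2 ratio below 0, 1 was at least 2-fold higher, 0 were lower by 2-fold, and the median was -0.30. Mgam, a brush border maltase and glucoamylase, had the lowest ratio, at 394.58 FPKM in the Setd2 KO pool and 667.09 FPKM in the control pool. Hk2, a hexokinase, was the higher one, at 6.23 FPKM in the Setd2 KO pool and 2.21 FPKM in the control pool, with a count ratio of 2.81 (2.25 to 3.54). The list shares genes, among them Sis, Lct and Treh, with the enterocyte markers.

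Known regulators and scaffolds of sugar carriers had a median log2 ratio of -0.02 over 11 measured genes. Sgk1, a kinase that raises the surface activity of several carriers, was the 1 gene at least 2-fold lower: it was at 64.77 FPKM in the Setd2 KO pool and 149.14 FPKM in the control pool, with a count ratio of 0.434 (0.407 to 0.462). Pdzk1ip1, a small partner protein of renal glucose carriers, had the highest ratio, at 3.96 FPKM in the Setd2 KO pool and 1.55 FPKM in the control pool, from 32 counts in the Setd2 KO pool and 12 in the control pool.

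The vitamin carriers split in both directions. Of 10 measured genes, 5 had intervals above 1 and 3 below 1, 1 passed 2-fold (lower) and 0 in the other direction, and the median log2 ratio was 0.03, which turned to -0.06 under median-ratio scaling and to -0.08 under TMM. The 2 vitamin C carriers went opposite ways. Slc23a1, the carrier of absorbing epithelia, was at 1.44 FPKM in the Setd2 KO pool and 8.90 FPKM in the control pool, from 37.78 counts in the Setd2 KO pool and 237.65 in the control pool. Its ratio of 0.163 (0.112 to 0.230) was the lowest of all measured carriers. Slc23a2, the widely expressed one, was at 48.89 FPKM in the Setd2 KO pool and 28.51 FPKM in the control pool, with a ratio of 1.71 (1.61 to 1.82) and a log2 ratio of 0.76. In both pools Slc23a2 was the more abundant of the pair.

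Folate carriers were on the higher side. Slc46a1, the proton-coupled folate carrier of the upper intestine, was at 372.69 FPKM in the Setd2 KO pool and 326.26 FPKM in the control pool, with a ratio of 1.14 (1.10 to 1.18). It ranked 232nd of all genes in the Setd2 KO pool and 276th in the control pool. Slc19a1, the reduced folate carrier, was at 42.97 FPKM in the Setd2 KO pool and 33.60 FPKM in the control pool, with a ratio of 1.28 (1.15 to 1.41). The folate enzymes had a median log2 ratio of 0.30 over 13 measured of 16 genes, against 0.08 over all measured genes. Of the 13, 11 were above 0, as were 8287 of all 13253 measured genes, and 1 was at least 2-fold higher. That gene was Ggh, the hydrolase that shortens folate polyglutamates, at 50.23 FPKM in the Setd2 KO pool and 8.12 FPKM in the control pool; its ratio was 6.19 (4.97 to 7.77).

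The B vitamin carriers differed by less. Slc52a3, the riboflavin carrier of the gut surface, was at 20.45 FPKM in the Setd2 KO pool and 14.61 FPKM in the control pool, with a ratio of 1.39 (1.20 to 1.597). Slc52a2, a riboflavin carrier of many tissues, was at 32.90 FPKM in the Setd2 KO pool and 37.13 FPKM in the control pool, with a ratio of 0.886 (0.803 to 0.977). Slc19a3, a thiamine carrier, was at 13.33 FPKM in the Setd2 KO pool and 11.15 FPKM in the control pool. The intervals of Slc19a2, the other thiamine carrier, and of Slc5a6, the carrier of biotin and pantothenate, included 1. Slc46a3, a lysosomal relative of the folate carrier, was at 17.37 FPKM in the Setd2 KO pool and 24.05 FPKM in the control pool, with an interval below 1. None of the 19 enzymes of B vitamin cofactor synthesis was past 2-fold, and their median was -0.07. Rfk, which makes FMN from riboflavin, had the lowest ratio of that list, at 261.15 FPKM in the Setd2 KO pool and 382.41 FPKM in the control pool. Hlcs, which attaches biotin to carboxylases, had the highest, at 2.68 FPKM in the Setd2 KO pool and 1.05 FPKM in the control pool.

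The concentrative nucleoside carriers Slc28a1 and Slc28a2 differed from each other in RNA ratio. Slc28a1, which prefers pyrimidine nucleosides, was at 34.30 FPKM in the Setd2 KO pool and 78.77 FPKM in the control pool. Its 849 counts in the Setd2 KO pool and 1987 in the control pool gave a ratio of 0.435 (0.401 to 0.472). Slc28a2, which prefers purine nucleosides and was the more abundant, was at 173.40 FPKM in the Setd2 KO pool and 190.34 FPKM in the control pool, with a ratio of 0.911 (0.879 to 0.943). The intervals of the pair do not overlap. Slc29a1, the equilibrative carrier of most cells, was at 12.95 FPKM in the Setd2 KO pool and 9.80 FPKM in the control pool, with a ratio of 1.31 (1.07 to 1.61). Slc28a3 and the lysosomal Slc29a3 were under 5 FPKM with intervals that included 1.

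Enzymes of nucleoside breakdown and salvage had 0 genes past 2-fold among 19 and a median log2 ratio of 0.13. The most abundant, Ada, which deaminates adenosine, was at 1266 FPKM in the Setd2 KO pool and 1635 FPKM in the control pool. Nt5e, the surface enzyme that makes adenosine from AMP, had the lowest ratio, at 24.50 FPKM in the Setd2 KO pool and 45.73 FPKM in the control pool. Uck2, a uridine and cytidine kinase, had the highest, at 18.23 FPKM in the Setd2 KO pool and 11.46 FPKM in the control pool.

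**Figure D3:**
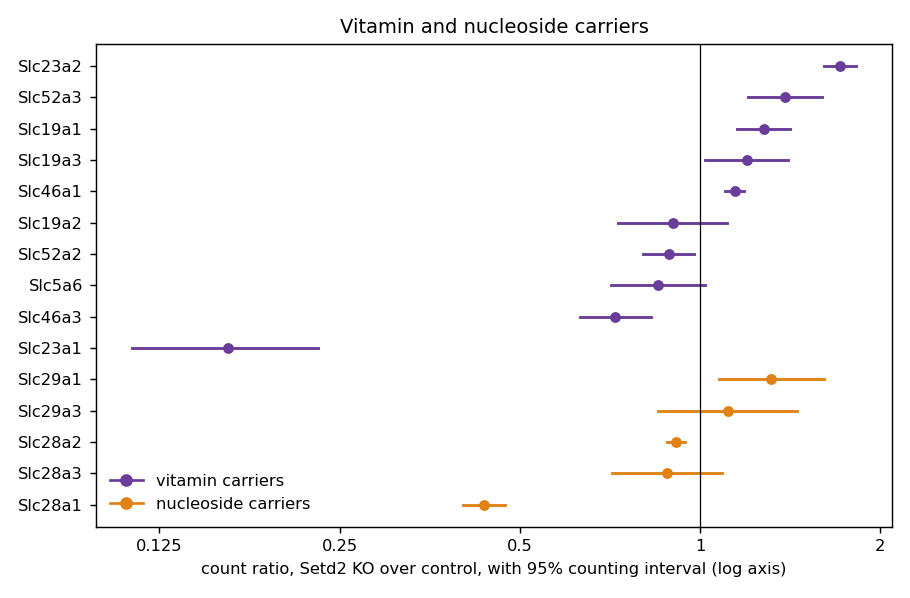
Count ratio of Setd2 KO over control on a log axis for the 10 measured vitamin carriers (purple) and 5 measured nucleoside carriers (orange); points are the ratio of expected counts scaled to the library totals and bars the exact 95% interval, which covers counting error only. Slc23a1 at 0.163 and Slc28a1 at 0.435 stand to the left of their relatives, and Slc23a2 at 1.71 is the farthest to the right.

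Of the 5 anion carriers of the Slc13 family 2 were measured, and both were abundant and lower within 2-fold. Slc13a1, a sulfate carrier of the brush border, was at 158.30 FPKM in the Setd2 KO pool and 219.71 FPKM in the control pool (ratio 0.720, 0.689 to 0.753). Slc13a2, a carrier of citrate and succinate, was at 142.91 FPKM in the Setd2 KO pool and 187.07 FPKM in the control pool (ratio 0.764, 0.726 to 0.803). Its antisense RNA Slc13a2os overlaps it by 8382 bases on chromosome 11 and was at 23.16 FPKM in the Setd2 KO pool and 32.26 FPKM in the control pool. Whether the counting used strand is not given in the sources used here, so reads of this pair may not be separated. Slc5a12, a sodium-driven carrier of lactate and other monocarboxylates, was at 19.38 FPKM in the Setd2 KO pool and 24.34 FPKM in the control pool, while Slc5a5, Slc5a7 and Slc5a8, which carry iodide, choline and short-chain fatty acids, were not measured.

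Bile acid carriers were scarce in these libraries. Slc10a2, the sodium-driven bile acid carrier of the ileum, was under the filter in both pools, at 0.88 FPKM in the Setd2 KO pool and 0.59 FPKM in the control pool, from 12.36 counts in the Setd2 KO pool and 8.44 in the control pool. Slc10a1, its liver relative, had 10.52 counts in the Setd2 KO pool and 2.23 in the control pool. Slc10a7, a relative with a part in glycan and bone biology, was not counted as 2-fold higher on the scale used, although its count ratio was: it was at 3.97 FPKM in the Setd2 KO pool and 1.98 FPKM in the control pool, with a count ratio of 2.01 (1.47 to 2.76) and a log2 ratio of 0.74. It passed 2-fold with a pseudocount of 0.01 FPKM. Slc10a5 was at 17.38 FPKM in the Setd2 KO pool and 21.49 FPKM in the control pool, with an interval below 1. Of the other genes of bile acid handling, 7 of 11 were measured, 0 passed 2-fold and the median was 0.22. The basolateral exporter subunits Slc51a and Slc51b were at 134.60 and 74.84 FPKM in the Setd2 KO pool and at 109.33 and 71.96 FPKM in the control pool. Fabp6, the ileal bile acid binding protein, was at 1.68 FPKM in the Setd2 KO pool and 0.47 FPKM in the control pool, from only 7 counts in the Setd2 KO pool and 2 in the control pool.

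Organic cation and anion carriers of the Slc22 family held the other higher gene. Slc22a7, an organic anion carrier best known from liver and kidney, was at 1.67 FPKM with 29 counts in the Setd2 KO pool and at 0 with 0 counts in the control pool. With a floor of 3 counts put in for the control library, it was 9.85-fold higher in the Setd2 KO pool. This is not a lower bound, since the exact interval of its count ratio began at 7.51. It passed the filter only through the Setd2 KO library. Some defining markers of both organs were near 0. Albumin (Alb) was at 0.28 FPKM in the Setd2 KO pool and 0.16 FPKM in the control pool, and Ahsg was listed at 0 in both. The renal Slc34a1 was at 0.07 FPKM in the Setd2 KO pool and 0.04 FPKM in the control pool, and Lrp2 at 0.01 FPKM in the Setd2 KO pool and at 0 in the control pool. Cps1, Aqp1 and Cubn, on the same lists, were at 130.70, 40.09 and 5.10 FPKM in the Setd2 KO pool and at 125.47, 41.59 and 9.87 FPKM in the control pool. Of the 9 hepatocyte and 6 kidney markers in the table, 5 were measured and Ttr was the 1 at least 2-fold higher, at 4.35 FPKM in the Setd2 KO pool and 1.67 FPKM in the control pool. The pancreas markers differed as given above, and their part in the Slc22a7 difference was not tested.

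The more abundant Slc22 genes differed by less than 2-fold in either direction. Slc22a18, the most abundant at 77.41 FPKM in the Setd2 KO pool and 77.19 FPKM in the control pool, had a ratio of 1.001 (0.917 to 1.09). Slc22a5, the carnitine carrier, was at 60.58 FPKM in the Setd2 KO pool and 46.71 FPKM in the control pool, with a ratio of 1.30 (1.20 to 1.40). Slc22a4, the ergothioneine carrier in the same cluster on chromosome 11, was at 8.78 FPKM in the Setd2 KO pool and 11.55 FPKM in the control pool, with a ratio of 0.759 (0.619 to 0.928). Slc22a21, which lies between them, was at 3.56 FPKM in the Setd2 KO pool and 3.43 FPKM in the control pool. Slc22a15 and Slc22a23, members with less known substrates, had intervals above 1, at 1.75 and 13.08 FPKM in the Setd2 KO pool and 0.92 and 9.62 FPKM in the control pool.

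Slc22a13 and its pseudogene Slc22a13b-ps, which lie 11385 bases apart on chromosome 9, may share reads. Their summed counts were 58 in the Setd2 KO pool and 116 in the control pool, a ratio of 0.509 (0.365 to 0.704). The 10 measured Slc22 genes had 1 higher and 0 lower members and a median log2 ratio of 0.10.

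The remaining carriers of organic ions had no gene past 2-fold. Slc47a1, a proton-driven exporter of organic cations, was at 29.54 FPKM in the Setd2 KO pool and 26.80 FPKM in the control pool. Slco2b1, an organic anion carrier of the gut, was at 14.45 FPKM in the Setd2 KO pool and 13.68 FPKM in the control pool, and both intervals included 1. Slco4a1, a thyroid hormone carrier, was at 2.59 FPKM in the Setd2 KO pool and 3.89 FPKM in the control pool, with a ratio of 0.667 (0.486 to 0.909). Of the 8 Slc17 genes 3 were measured. Slc17a4, a carrier of organic anions in the gut, was at 8.40 FPKM in the Setd2 KO pool and 10.61 FPKM in the control pool. The lysosomal sialic acid carrier Slc17a5 and the vesicular ATP carrier Slc17a9 were at 4.16 and 2.00 FPKM in the Setd2 KO pool and at 3.72 and 2.06 FPKM in the control pool, with intervals that included 1.

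ABC exporters of drugs and organic ions had 8 measured of 9 genes, with 1 gene past 2-fold in each direction and a median of 0.02. Abcc4, an exporter of cyclic nucleotides, was at 3.35 FPKM in the Setd2 KO pool and 1.12 FPKM in the control pool, with a ratio of 2.95 (2.17 to 4.06). Abcc6, needed in liver for normal pyrophosphate levels, was at 1.80 FPKM in the Setd2 KO pool and 4.80 FPKM in the control pool, with a ratio of 0.375 (0.285 to 0.488).

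Measured carriers of the Slc35 and Slc37 families stayed within 2-fold in every case. Of 26 measured Slc35 and Slc37 genes 13 had a log2 ratio above 0 and 13 below, from -0.43 (Slc35f2) to 0.58 (Slc37a1). Over all measured genes 37.2% were below 0. Slc35c2, a relative of the GDP-fucose carrier, was the most abundant, at 117.65 FPKM in the Setd2 KO pool and 138.68 FPKM in the control pool, followed by Slc35b1, which exchanges ATP and ADP across the endoplasmic reticulum, at 108.01 FPKM in the Setd2 KO pool and 122.70 FPKM in the control pool. Both intervals lay below 1. Slc35c1, the GDP-fucose carrier, was at 46.09 FPKM in the Setd2 KO pool and 34.38 FPKM in the control pool, with a ratio of 1.35 (1.23 to 1.48). Slc35b4, a carrier of UDP-xylose and UDP-N-acetylglucosamine, had the highest ratio of the Slc35 family, at 4.43 FPKM in the Setd2 KO pool and 2.92 FPKM in the control pool. The sialic acid carrier Slc35a1 was at 9.75 FPKM in the Setd2 KO pool and 7.62 FPKM in the control pool, with an interval above 1. Slc35a2 and Slc35a3, the carriers of UDP-galactose and UDP-N-acetylglucosamine, were at 16.98 and 42.69 FPKM in the Setd2 KO pool and at 19.12 and 40.28 FPKM in the control pool, with intervals that included 1.

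In the sugar phosphate carriers Slc37a1 was at 34.84 FPKM in the Setd2 KO pool and 23 FPKM in the control pool, with a ratio of 1.503 (1.36 to 1.66). Slc37a4, the glucose 6-phosphate carrier of the endoplasmic reticulum, was at 56.46 FPKM in the Setd2 KO pool and 55.12 FPKM in the control pool. The enzymes that make nucleotide sugars, with 23 of 24 measured, had 0 genes past 2-fold and a median of -0.01. Gmds, the first enzyme of GDP-fucose synthesis, was at 112.21 FPKM in the Setd2 KO pool and 77.24 FPKM in the control pool, with a ratio of 1.45 (1.34 to 1.58), the highest log2 ratio of that list. Fpgt, a GDP-fucose salvage enzyme, had the lowest, at 3.81 FPKM in the Setd2 KO pool and 6.22 FPKM in the control pool.

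**Figure D4:**
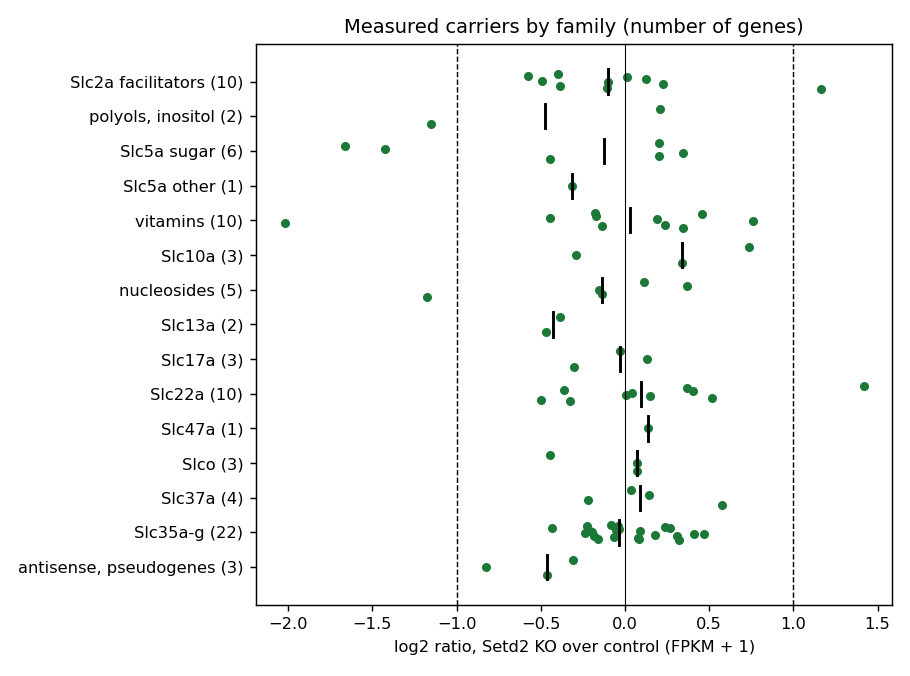
Log2 ratio of Setd2 KO over control (1 FPKM added to both) for each of the 85 measured carriers by family, with the number of genes in brackets, the family median as a bar and 2-fold as dashed lines. The genes past 2-fold lie in the Slc2, inositol, Slc5 sugar, vitamin, nucleoside and Slc22 rows, and the Slc35 and Slc37 rows lie between -0.43 and 0.58.

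The direction differed with level for the carriers, and less so for all genes, in a split chosen after the values were seen. Of the 9 carriers with a mean of 100 FPKM or more, 8 had a lower value in the Setd2 KO pool and an interval below 1, with Slc46a1 the exception, and the median log2 ratio of the 9 was -0.39. Among all 849 genes at that level, 445 (52.4%) were below 0, 340 had an interval below 1, and the median was -0.02. The 42 carriers between 10 and 100 FPKM had 20 below 0 (47.6%) and a median of 0.01, against 38.4% and 0.07 for the 5131 genes at that level. The 34 measured carriers under 10 FPKM had 16 below 0 (47.1%) and a median of 0.06, against 34.6% and 0.12 for the 7273 genes at that level.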

How the data were processed

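RNA-seq of whole intestine came from 1 pooled library in each of 2 groups. Per the labels' protocols, the aligners were BWA and Bowtie2 on mm10, and RSEM gave the gene values; versions, filters and strandedness are not given in the sources used here. The authors deposited RSEM expected counts per gene (not normalized) and FPKM, per the file headers, with FPKM to 2 decimals. RSEM divides reads that fit several genes, which gives expected counts that are not whole.

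A gene was measured at an FPKM of 1 or more in at least 1 library. The compared value was log2 of (Setd2 KO FPKM + 1) over (control FPKM + 1), which understates the change of low genes. Count ratios used expected counts over library totals of 8646358 (Setd2 KO) and 8809678 (control), with exact Clopper-Pearson 95% intervals of the rounded counts. Intervals and the floor of 3 counts (0.347 CPM in the Setd2 KO library and 0.341 CPM in the control library) cover counting error only, since reads without molecular identifiers are not independent molecules. edgeR 4.0.16 in R 4.3.3 was used only for TMM scaling factors; the rest was done in Python 3.11.15 with scipy 1.17.1, and the interval code was tested on simulated data. No test between groups was possible with 1 library each.

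Every member could be named; full values went to those past 2-fold and, in each role group, to the most abundant and to up to 2 at each end of the log2 ratios, and in each of the 8 pathway lists to the genes past 2-fold and the highest and lowest. Other members named, such as Slc2a7 and Slc10a2, were chosen after their values were seen. Some genes that this rule takes are not reported here. The members and lists were chosen with earlier results of these data known. Positions and promoter windows are from RefSeq on GRCm38.p6.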

Additional observations from a re-analysis of the deposited data

How the results depend on the processing

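Of 8 other settings (pseudocounts of 0.1 and 0.01 FPKM, no filter, an FPKM of 5 or more, scaling by the median ratio or TMM, TPM, and CPM) and 1 chosen after seeing the data (50 or more expected counts in 1 library), each left the same 5 carriers at least 2-fold lower. The higher carriers were 1, Slc2a1 alone, with an FPKM of 5 or more and 1, again Slc2a1, with 50 or more expected counts, since Slc22a7 is below both filters. They were 3 with a pseudocount of 0.01 FPKM, which added Slc10a7, and 2 otherwise. The carriers' median log2 ratio ranged from -0.13 with TMM to 0 without a filter. Scaling moved the median of all genes by -0.08 (median ratio), -0.10 (TMM) and 0.02 (TPM). Of 48 single carriers with 414 alternative values, 394 stayed within the counting interval, widened where needed to take in the main log2 ratio. The sign turned in 4 genes, Slc22a18, Slc37a4, Slco2b1 and Slco3a1. The sign of the median turned in 5 of 14 role groups (Slco, inositol, Slc37, Slc17 and vitamin carriers) and in 2 of 8 pathway lists (ABC exporters and nucleotide sugar synthesis).

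No paired analysis was possible because each group has 1 library. With 1 pool a group, the genotype cannot be told apart from the litter, the piece of intestine sampled and the library. Depth limits the scarce carriers: the 36 genes under 1 FPKM had from 0 to 44 counts in the higher library; the count interval included 1 for 32 of them and lay above 1 for Slc10a1, Slc13a3, Slc47a2 and Slco5a1.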
